A study of Mus musculus with 11 samples.

Results

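The comparison described here is the response of the whole pancreas of 7-week-old mice to caerulein, read across all genes in 6 RNA sequencing libraries, 3 from treated and 3 from untreated mice, of 11 libraries in the series. Its members are the 6 count columns that the labels assign to 7-week caerulein mice 1 to 3 and 7-week untreated mice 1 to 3. In the fit of all 11 libraries 14113 of 54532 genes had enough reads to be tested, and 12848 with the 6 young libraries alone. Caerulein is a peptide analogue of the gut hormone cholecystokinin. At a moderate dose the hormone binds its receptor on acinar cells, the enzyme-secreting cells that make up most of the pancreas, releases calcium from internal stores and triggers the exocytosis of granules filled with digestive enzymes. Above the dose that gives the most secretion, enzyme release stalls, trypsinogen is activated inside the cell and the tissue enters acute pancreatitis, so that repeated caerulein injection is the common mouse model of that disease.

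The mice were C57BL/6JRj. Treated mice had been injected into the peritoneum with 125 µg of caerulein per kg, given 4 times 1 hour apart, and their time point is labelled 5 h. The design text instead places the sampling 1 hour after an injection that it calls the first, so the interval between the first injection and sampling is not certain. The untreated mice were listed as having had no treatment, so an injection of vehicle alone is not part of the comparison. The other 5 libraries came from 18-month-old mice, 3 after caerulein and 2 untreated. They share the read filter, the scaling and the estimate of the spread between replicates. They also give the response of the older tissue, to which the younger one is compared at the end. Each library was made from polyadenylated RNA of the homogenised whole organ of 1 mouse, so all cell types of the organ contribute. In such bulk RNA fewer cells of a type and less RNA per cell cannot be told apart.

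The 6 libraries held between 16192852 and 23629858 reads assigned to genes, and levels are given per 1000000 reads (CPM), scaled by the trimmed mean of M-values. The 38 genes of the pancreatic proteases, lipases, amylases and nucleases took 77.0% ± 3.5 (SD, n = 3) of the reads of untreated mice and 60.2% ± 1.13 (SD, n = 3) of those of treated mice. The groups did not overlap, and an exact two-sided permutation test gave p = 0.1, the smallest value that 3 against 3 can give. The library of untreated mouse 2 stood apart from mice 1 and 3. Summed CPM of 15 B and plasma cell markers was 607 in mouse 2, 1.24 in mouse 1 and 1.27 in mouse 3, and that of 14 fat cell markers was 716, against 99.6 and 59.7. The first principal component of the 6 libraries took 69.1% of the variance and separated the treatments, and the second took 19.4% and separated mouse 2 from its group. All results are therefore given as fitted with mouse 2, and where a call or a size depended on it, also without that library.

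More genes than not differed between treated and untreated mice. edgeR's quasi-likelihood F test, with p-values adjusted by the method of Benjamini and Hochberg, called 7376 of 14113 genes, or 52.3%, at an adjusted p below 0.05: 3888 were higher in treated mice, which is 27.5% of the genes tested, and 3488 were lower, which is 24.7%. Of the higher genes 896 changed more than 4-fold and 53 more than 64-fold. Of the lower genes 821 changed more than 4-fold and 44 more than 64-fold. Without mouse 2, 7818 of 13567 genes were called, or 57.6%, with 4181 higher (30.8%) and 3637 lower (26.8%). In the authors' deposited table of the same comparison 3247 genes were higher and 2813 lower at their adjusted p below 0.05, and 5872 of the 7376 genes called here were called there in the same direction and none in the opposite one. The shares of genes called are the background for every gene group below. Fold changes are relative to the centre of the distribution set by the trimmed mean of M-values: the median log2 fold change over all genes tested was -0.06 with that scaling, and scaling by library totals raised it by 0.497, which gave 5314 higher and 1269 lower calls. With that scaling the smaller falls named below of Aqp12, Gata4, G6pdx, Insig1, Lima1, Myl9, Nr1d1, Nr1d2, Nr5a2, Per1, Pnlip, Prss3, Try4, Ulk1, Xpo1 and mt-Nd1 did not pass, nor did the larger fall of Dusp2 (-3.12), and that of Prss2 vanished (0.01). Sox9 (0.68) and Try5 (0.50), which did not pass otherwise, were called higher.

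The genes with the largest rises were almost silent in untreated tissue. Cdkn1a, which encodes the cell cycle inhibitor p21, stood at 1.74, 2.8 and 1.44 CPM in untreated mice 1, 2 and 3 and at 301, 330 and 295 CPM in treated mice 1, 2 and 3 (values for 3 mice are given in this order throughout). Every treated mouse was far above every untreated mouse, with a log2 fold change of 7.24 ± 0.24 (SE) and an adjusted p of edgeR's test of 1.15e-08. Tnfrsf12a, the receptor of the cytokine TWEAK, went from 1.07, 1.6 and 1.44 to 176, 199 and 156 CPM. Rin1, a regulator of Ras and Rab5 signalling, went from 0.393, 0.28 and 0.575 to 51.5, 45.6 and 43.6 CPM. Lif, the cytokine leukaemia inhibitory factor, went from 0.112, 0.599 and 0 to 33.6, 32.9 and 29.8 CPM. In none of the 4 genes did the groups overlap, and all passed the test (log2 fold changes 7.00 ± 0.19 for Tnfrsf12a, 6.84 ± 0.32 for Rin1 and 6.83 ± 0.45 for Lif, the last 8.94 without mouse 2). The selection that gave these genes (coding genes, groups that did not overlap, a mean of at least 20 CPM where higher) also holds Krt20, Hspa1b, Atf3, Nfil3 and Cldn4, with log2 rises between 6.93 (Krt20) and 9.40 (Hspa1b).

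Among the steepest falls were those of an enzyme of selenium metabolism, a nucleotide receptor and a modifier of Notch receptors. Smim24, a small membrane protein, fell from 63.4, 27.1 and 72.4 to 2.27, 0.83 and 1.46 CPM (log2 fold change -5.16 ± 0.47). Sephs2, which makes selenophosphate for selenoproteins, fell from 46.4, 22.2 and 49.9 to 3.14, 3.24 and 3.79 CPM. P2ry14, a receptor for UDP-sugars, fell from 36.9, 21.1 and 33.5 to 2.35, 3.16 and 2.91 CPM. In all 3 genes mouse 2 was the lowest of the untreated mice and still far above the highest treated mouse. Lfng, the Fringe glycosyltransferase that modifies Notch receptors, fell from 20.7, 25.1 and 21 to 1.87, 2.81 and 1.77 CPM. Parm1, Zfp503, Ssx2ip and Tef fell by between 3.45 (Tef) and 3.50 (Ssx2ip) on the log2 scale.

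**Figure D1:**
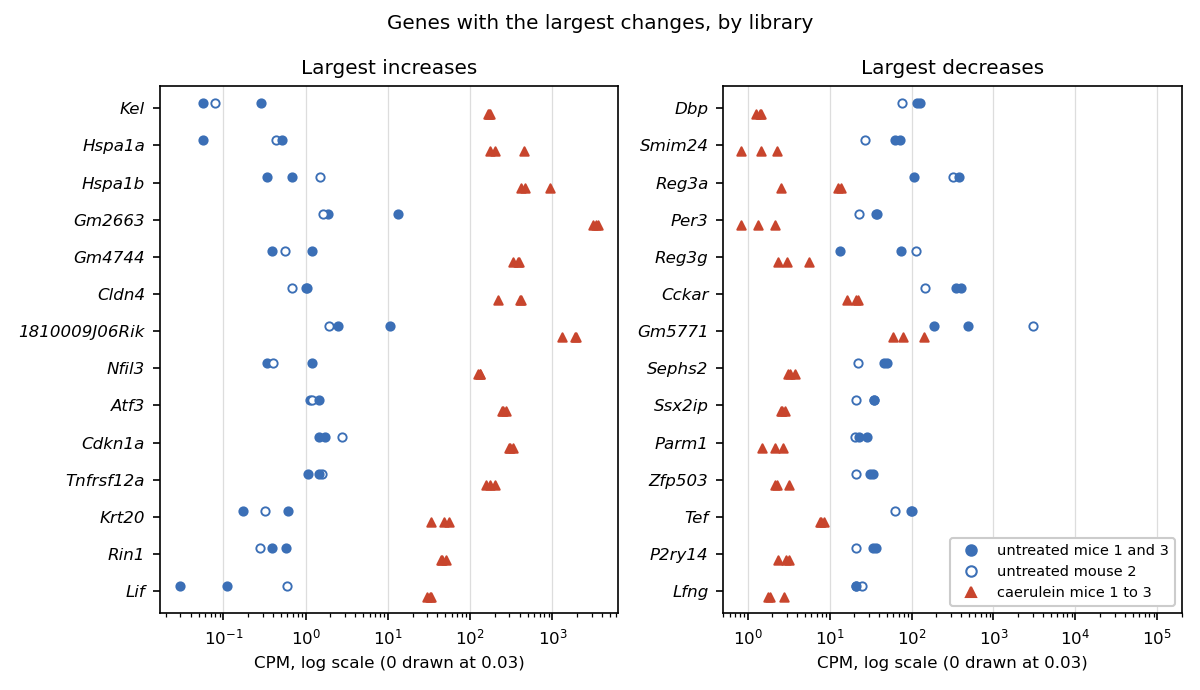
CPM of each of the 6 young libraries, on a log axis with 0 drawn at 0.03, for the 14 rising (left) and 14 falling (right) coding genes with the largest fold changes. Filled circles are untreated mice 1 and 3, open circles untreated mouse 2 and triangles the treated mice, and in none of these 28 genes do the groups overlap.

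A compact block of change lay on chromosome 6, where the trypsinogen genes stand. Trypsinogens are the inactive precursors of trypsin, the protease whose early activation inside acinar cells marks pancreatitis. In untreated tissue 3 of the genes there, Gm2663, 1810009J06Rik and Gm4744, gave few reads, and after caerulein all 3 were among the 14 coding genes with the largest rises. The abundant trypsinogens beside them fell or did not pass the test. The block was singled out after its values were seen.

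Gm4744 stood at 0.393, 0.56 and 1.21 CPM untreated and at 396, 333 and 385 CPM after caerulein (log2 fold change 9.03 ± 0.32, adjusted p of edgeR's test 1.38e-08). Gm2663 stood at 1.85, 1.64 and 13.3 CPM untreated and at 3405, 3104 and 3541 CPM after caerulein, a total of 306 reads against 224824 (log2 fold change 9.24 ± 0.81). 1810009J06Rik went from 2.47, 1.92 and 10.5 to 1923, 1322 and 1884 CPM (8.45 ± 0.63). Untreated mouse 3 was the highest untreated mouse for all 3 genes and remained far below every treated mouse. Without that mouse the log2 fold change was 10.90 for Gm2663 and 9.60 for 1810009J06Rik. The annotated transcripts of Gm2663 and 1810009J06Rik are 99.4% identical over 862 aligned bases, with a longest shared run of 450 bases, so how reads divide between that pair is uncertain, and only their common rise is read here. Neither they nor Gm4744 share a run of more than 26 bases with an abundant trypsinogen, and their identity to the nearest of these is 76.8% for Gm4744 and 76.3% for Gm2663, while the reads were 150 bases long.

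The other trypsinogens of the block fell or did not pass the test. With libraries scaled by their totals Try4, Prss2 and Prss3 did not pass, and Try5 was called higher (0.50). 2210010C04Rik, one of the main trypsinogens, fell from 55600, 27139 and 57153 to 19694, 19553 and 20911 CPM (log2 fold change -1.22 ± 0.27). Try4 fell from 56582, 39179 and 51111 to 30271, 26303 and 33078 CPM (-0.71 ± 0.21). Try5, whose transcript is 97.1% identical to that of Try4, gave -0.04 ± 0.23 and did not pass. Untreated and treated values did not overlap for 2210010C04Rik or Try4. Prss2, the anionic trypsinogen, passed narrowly at an adjusted p of 0.0456 with groups that overlapped, 50922, 32936 and 52636 CPM against 29794, 33427 and 30237. Try10 fell by 1.48 ± 0.33 on the log2 scale. Prss3 and Gm5771 were highest in untreated mouse 2, at 5349 CPM against 1015 and 1639 for Prss3 and at 3014 CPM against 186 and 484 for Gm5771. Both were lower in treated mice (log2 fold changes -1.78 and -3.72), and without mouse 2 the falls were -0.83 and -1.90. The calls of this group were fragile. That of Prss2 was lost in the fit without any one of the libraries of untreated mice 1 and 3 and of the treated mice (adjusted p of edgeR's test between 0.0822 and 0.132), that of Try4 without treated mouse 2 (0.0644), and that of Prss3 without treated mouse 2 (0.0608) or treated mouse 3 (0.0537). Prss3, Gm5771, Gm10334 and Prss1 share between 95.7% and 98.9% of their sequence in the pairs compared, so their single values are uncertain, and Gm10334 and Prss1 did not pass, except Gm10334 without untreated mouse 1 (-1.76) and both genes with no filter on low counts (-1.26 and -0.76).

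The genes that end the block encode membrane proteins, and all of these rose. Kel encodes the Kell blood group metalloprotease. It stood at 0.0562, 0.0799 and 0.288 CPM untreated and at 165, 168 and 174 CPM after caerulein (10.24 ± 0.39, and 11.11 without untreated mouse 3). Trpv6, an epithelial calcium channel, went from 3.82, 4.48 and 5.29 to 158, 127 and 174 CPM (5.08 ± 0.20), and its close relative Trpv5, on few untreated reads, rose by 5.59 ± 0.97 (8.31 without untreated mouse 3 and 4.89 without mouse 2). Ephb6, an ephrin receptor without kinase activity, went from 0.45, 1.68 and 1.21 to 8.58, 8.34 and 9.25 CPM (2.94 ± 0.38).

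**Figure D2:**
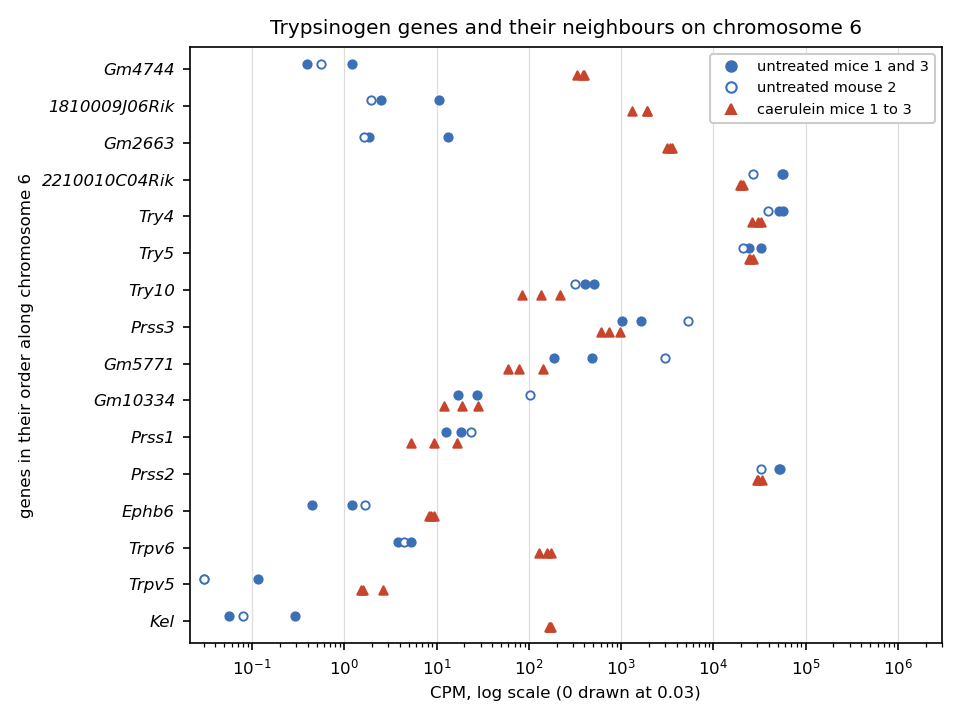
CPM of each of the 6 young libraries, on a log axis with 0 drawn at 0.03, for the trypsinogen genes and their neighbours in their order along chromosome 6, with filled circles for untreated mice 1 and 3, open circles for untreated mouse 2 and triangles for treated mice. Gm4744, 1810009J06Rik and Gm2663 at one end and Ephb6, Trpv6, Trpv5 and Kel at the other end have all treated mice to the right of all untreated mice, and the trypsinogens between them do not.

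Gm2663 and Kel, near the ends of the block, each hold a match to TGANTCA in the 250 bases before the start of transcription. That pattern was used to search for the AP-1 motif of Fos and Jun factors. With any base allowed at N, a match need not be a site that these factors bind. The match is TGAATCA in Gm2663 and TGACTCA in Kel, and binding was not tested. Both windows are printed because these genes had the largest rises in the block. The sequences are RefSeq's of assembly GRCm38.p6, the assembly that the browser name mm10 stands for. They are on the strand of the gene, with the match to TGANTCA in capitals. Gm2663 lies on the minus strand at chr6:40999480-40999729 and has 1 match, whose first base is at position -157 from the start of transcription. Kel lies on the minus strand at chr6:41704326-41704575 and has 1 match, at position -232.

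Gm2663: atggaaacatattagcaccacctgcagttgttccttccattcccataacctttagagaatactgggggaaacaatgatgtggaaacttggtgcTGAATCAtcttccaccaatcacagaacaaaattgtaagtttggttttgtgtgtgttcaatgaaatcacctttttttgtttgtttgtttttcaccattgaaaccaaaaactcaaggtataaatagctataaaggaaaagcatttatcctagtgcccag
Kel: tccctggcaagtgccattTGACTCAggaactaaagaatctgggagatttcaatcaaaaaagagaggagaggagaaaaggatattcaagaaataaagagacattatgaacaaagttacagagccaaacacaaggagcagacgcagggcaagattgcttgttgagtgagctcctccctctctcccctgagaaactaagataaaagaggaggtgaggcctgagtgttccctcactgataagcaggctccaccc

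Of 10321 tested genes with such a window, 5.62% held a match to TGANTCA, with any base at N, when both strands were searched. Among genes called higher by more than 16-fold the share was 17.5%, or 18 of 103, among all genes called higher 6.64%, and among genes called lower by more than 16-fold 2.56%, or 2 of 78. These shares are descriptions of letters in a window and were not tested.

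Genes of the actin cytoskeleton rose together. Serum response factor (SRF) and its actin-sensing partners of the MRTF family drive many of these genes when free actin is used up in filaments. Of 30 tested members of a list of their targets 22 rose and 2 fell, against 27.5% and 24.7% of all genes. The median log2 fold change of the list was 2.23, against -0.06 for all genes, and without mouse 2 26 of the 30 rose. Without untreated mouse 1 or mouse 3 the number that fell was 4. Srf itself went from 12.1, 16.1 and 13.4 to 183, 198 and 175 CPM (3.74 ± 0.16). Vcl, vinculin, which ties actin filaments to sites of adhesion, went from 6.13, 6.67 and 5.35 to 74.2, 83 and 78 CPM (3.69 ± 0.12, adjusted p of edgeR's test 1.15e-08). In both genes the treated mice were alike and lay far above the untreated ones.

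The cytoplasmic actins were among the genes that gained most reads. Actg1 stood at 40.2, 125 and 47.8 CPM untreated and at 3882, 4261 and 3642 CPM treated (5.79 ± 0.42). Actb stood at 64.5, 401 and 76.3 CPM untreated and at 1917, 1999 and 1859 CPM treated. Mouse 2 was the highest untreated mouse for both, and without it the log2 rise of Actb was 4.72 instead of 3.41 and that of Actg1 was 6.43 instead of 5.79. Zyx (4.24), Tpm4 (4.14) and Actn4 (3.13), which bind or bundle actin, rose as well. Lima1 (-0.89) and Myl9 (-1.85, and -1.20 without mouse 2), the latter a myosin light chain of smooth muscle, fell.

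SRF binds the CArG box, which 1.45% of all windows and 1.65% of those of genes called higher contained. Among genes higher by more than 16-fold, which do not include Srf and Vcl, the share was 3.88%, or 4 of 103. These shares were not tested. Srf, Actg1 and Vcl are shown because they carry it within 250 bases of their start and are among the largest or most significant rises of the list. The windows lie on GRCm38.p6 at chr17:46556163-46556412 on the minus strand for Srf, chr11:120348496-120348745 on the minus strand for Actg1 and chr14:20929148-20929397 on the plus strand for Vcl. The CArG boxes, in capitals, begin at positions -82 and -62 from the start of Srf, -90 from that of Actg1 and -227 from that of Vcl.

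Srf: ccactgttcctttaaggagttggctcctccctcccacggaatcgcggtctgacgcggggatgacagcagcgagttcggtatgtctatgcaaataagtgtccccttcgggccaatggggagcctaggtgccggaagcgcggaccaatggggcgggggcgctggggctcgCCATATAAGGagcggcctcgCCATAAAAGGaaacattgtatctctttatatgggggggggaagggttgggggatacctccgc
Actg1: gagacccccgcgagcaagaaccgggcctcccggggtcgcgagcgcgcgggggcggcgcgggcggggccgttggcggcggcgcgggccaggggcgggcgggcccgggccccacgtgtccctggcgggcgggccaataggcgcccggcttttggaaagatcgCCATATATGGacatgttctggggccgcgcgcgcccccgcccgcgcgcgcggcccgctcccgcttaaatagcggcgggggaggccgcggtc
Vcl: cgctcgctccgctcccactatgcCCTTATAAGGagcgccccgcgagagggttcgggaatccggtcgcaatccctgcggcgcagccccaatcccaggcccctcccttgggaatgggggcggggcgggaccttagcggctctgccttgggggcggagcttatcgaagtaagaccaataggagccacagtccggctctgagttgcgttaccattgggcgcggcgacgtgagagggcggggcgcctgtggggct

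Keratins and the plaques that anchor them changed in the same direction. Keratins form the intermediate filaments of epithelia, and desmosomes and hemidesmosomes fasten them to neighbouring cells and to the matrix below. Of 29 tested genes of this list 25 rose and 1 fell (background 27.5% and 24.7%), with a median log2 fold change of 2.35. Krt18 went from 121, 58.2 and 117 to 2191, 1839 and 1768 CPM, and Krt20, a keratin of intestinal and urinary epithelium, from 0.618, 0.32 and 0.173 to 47.4, 55.3 and 33.7 CPM. The groups did not overlap for either. Krt80 (4.18), Krt19 (3.60), Pkp3 (3.25), Dsp (3.08) and Itga6 (2.33) rose too, the last 3 being parts of desmosomes and of an integrin that binds the basement membrane.

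Of 25 tested genes of tight and gap junctions and of adherens contacts 16 rose and 2 fell, with a median of 1.54. Cdh1, E-cadherin, went from 65.6, 32.3 and 57.6 to 959, 1053 and 986 CPM, and Tjp1, the scaffold ZO-1, from 19.1, 19.3 and 20.7 to 124, 141 and 150 CPM. Treated mice were separated from untreated mice for both. Cldn7 (3.46) and Ocln (3.36) of the tight junction rose. Gjb2, a gap junction gene of acinar cells, rose (1.54), and Cldn10 fell (-1.62). Gjb1, another gap junction gene, passed narrowly as lower (-0.50, adjusted p of edgeR's test 0.0464) with groups that overlapped. Without mouse 2 it stood at -0.77. Its fall with all libraries was about as large as the shift of 0.497 between the scalings. Cldn4, a claudin that seals epithelia, went from 1.01, 0.679 and 1.04 to 413, 400 and 215 CPM. Its window, at chr5:134946935-134947184 on the minus strand of GRCm38.p6, is shown because it has 2 AP-1 matches, in capitals, which begin at positions -240 and -158.

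Cldn4: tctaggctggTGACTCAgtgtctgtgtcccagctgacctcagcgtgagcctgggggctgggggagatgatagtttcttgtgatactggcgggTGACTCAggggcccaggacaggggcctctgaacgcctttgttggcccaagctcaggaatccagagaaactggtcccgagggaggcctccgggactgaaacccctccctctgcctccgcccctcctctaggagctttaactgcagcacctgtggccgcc

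**Figure D3:**
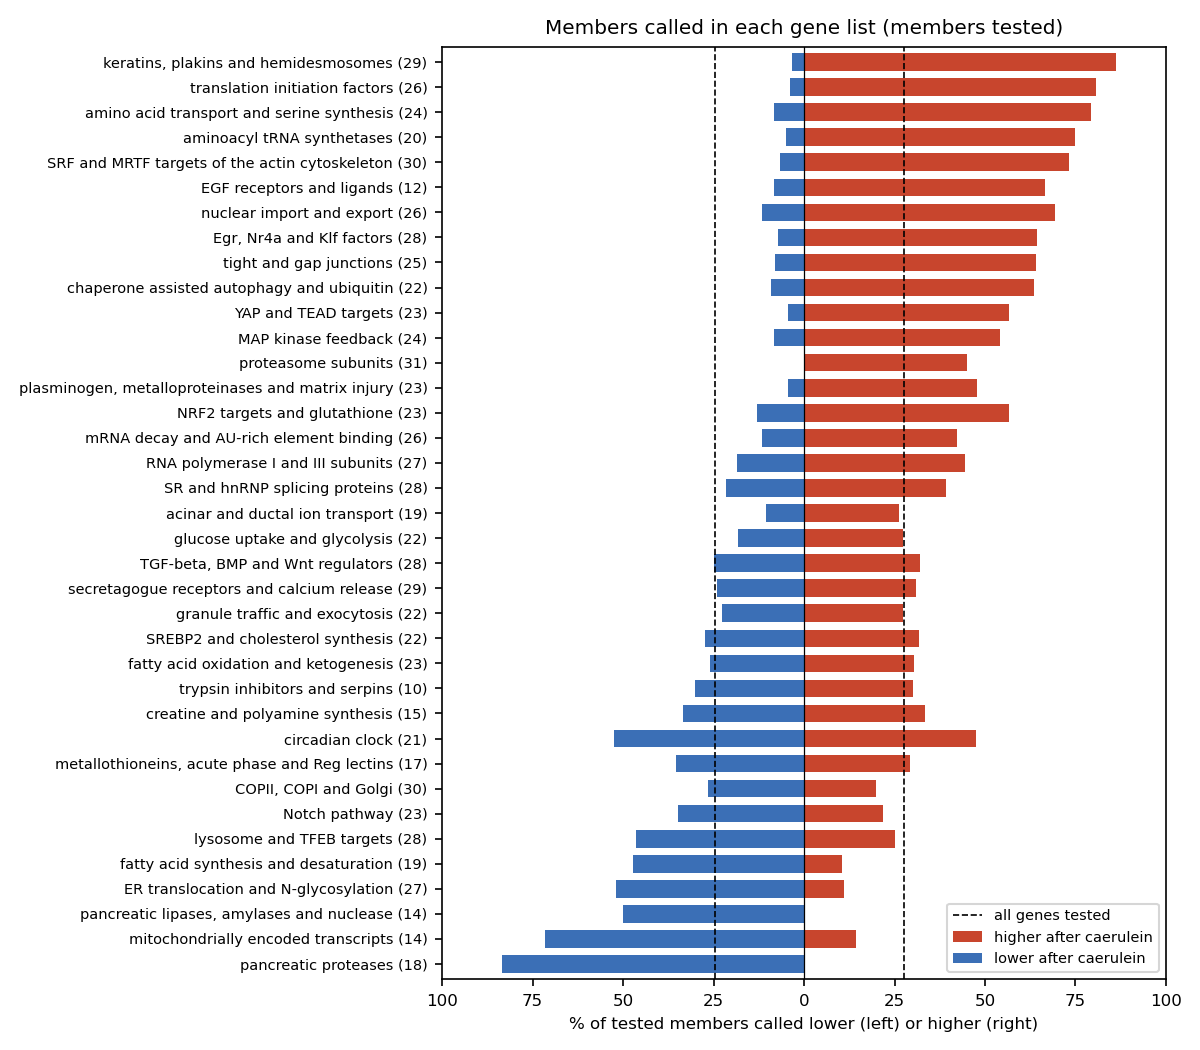
Percentage of the tested members of each gene list (their number in brackets) that were called higher (right) or lower (left) after caerulein, with the percentages over all genes tested, 27.5% and 24.7%, as dashed lines. The keratin list has the highest share of rising genes, 25 of 29, and the pancreatic protease list has 15 of 18 falling and none rising, but does not hold Gm2663, 1810009J06Rik and Gm4744 of the trypsinogen block, which rose.

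Receptors and ligands of the epidermal growth factor (EGF) family rose on both sides of the signal. Of 12 tested genes 8 rose and 1 fell. Hbegf, a membrane-bound ligand of the EGF receptor, went from 0.731, 0.719 and 1.09 to 32, 42.8 and 29.5 CPM (5.37 ± 0.22), and Egfr, the receptor, from 6.24, 4.64 and 5.75 to 96.5, 115 and 114 CPM (4.29 ± 0.18). Erbb3 went from 15.9, 7.59 and 10.9 to 150, 153 and 144 CPM. All treated mice were above all untreated mice for the 3 genes. Erbb2 (2.74) and the ligand gene Btc (2.65) rose, as did Rhbdf2 (3.95), which escorts the protease that sheds ligands. Egf itself fell from 52.9, 30.7 and 57.1 to 19, 17.1 and 20.7 CPM (-1.31). Erbb4 did not pass, at -0.49.

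Feedback inhibitors of MAP kinase signalling, made in response to it, rose in 13 of 24 tested genes and fell in 2 (4 without untreated mouse 3), with a median of 0.94. The phosphatase genes Dusp8 (4.47), Dusp5 (4.43, and 5.93 without mouse 2), Dusp14 (3.72) and Dusp1 (3.44) rose, as did Errfi1 (3.26), which inhibits the EGF receptor. Dusp7 fell (-1.31). Dusp2 was called lower on mouse 2 alone, which had 9.11 CPM where every other young library was below 1, and without that mouse it did not pass (-0.11). It also lost the call without treated mouse 2 (-2.91) or treated mouse 3 (-3.03), and stood at -4.56 without treated mouse 1. Of 28 tested genes of the Egr, Nr4a and Klf families of fast-induced transcription factors 18 rose and 2 fell, and without mouse 2 24 rose. Klf6 rose by 4.97, Egr1 by 4.69 (5.36 without mouse 2), Nr4a3 by 4.36 (7.24 without mouse 2) and Klf5 by 3.96, while Klf15, a factor of fasting metabolism, fell by 2.98. The list counts of the last 2 groups are set against 27.5% higher and 24.7% lower among all genes.

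Of 23 tested targets of YAP and TEAD, the factors that answer to stretch and cell contact, 13 rose and 1 fell (median 0.93). Fosl1 went from 0.618, 0.4 and 0.345 to 37.1, 48.6 and 30.3 CPM, Gadd45a rose by 5.78, Ankrd1 by 3.90, Cyr61 by 3.33 and Ctgf by 1.56. The last 2 rose by 4.83 and 2.20 without mouse 2, and Cyr61 by 2.73 without treated mouse 2. Yap1 itself rose by 2.11. Among 23 tested genes of plasminogen activation, metalloproteinases and matrix injury 11 rose and 1 fell. Without mouse 2 16 rose, and without untreated mouse 1 4 fell. Thbs1, thrombospondin, went from 4.55, 6.95 and 5.75 to 91.4, 140 and 110 CPM. Treated mouse 2 was the highest, and the groups did not overlap.

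The cytosolic heat shock genes Hspa1a and Hspa1b had among the largest folds of all coding genes. Hspa1a stood at 0.0562, 0.44 and 0.518 CPM untreated and at 201, 449 and 175 CPM treated (9.61 ± 0.56), and Hspa1b at 0.337, 1.48 and 0.691 CPM untreated and at 458, 928 and 420 CPM treated (9.40 ± 0.52, and 10.13 without mouse 2). Treated mouse 2 was the highest for both genes, and the groups were far apart. The 2 genes are near-identical copies on chromosome 17, so reads may divide between them in ways the counts do not show. Their windows, at chr17:34972157-34972406 and chr17:34959239-34959488, both on the minus strand of GRCm38.p6, differ at 3 of 250 bases. That of Hspa1a is shown with the paired heat shock unit GAANNTTC, in capitals, which begins at position -104 and which 6.12% of all windows hold. The share was 5.95% among genes called higher. Among genes higher by more than 16-fold it was 7.77%, and among those lower by more than 16-fold 12.8%. These shares were not tested.

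Hspa1a: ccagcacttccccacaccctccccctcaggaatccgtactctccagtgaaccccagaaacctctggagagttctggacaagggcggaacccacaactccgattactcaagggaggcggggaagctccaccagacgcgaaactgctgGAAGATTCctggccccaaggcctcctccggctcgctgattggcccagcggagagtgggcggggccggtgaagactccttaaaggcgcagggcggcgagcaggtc

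Helpers that carry damaged protein to degradation rose with the chaperones. Of 22 tested genes of chaperone-assisted autophagy and ubiquitin 14 rose and 2 fell (median 0.82). Sqstm1, the autophagy receptor p62, went from 130, 91.5 and 126 to 1081, 1194 and 1051 CPM. Its groups did not overlap. Hspb1 (4.48), Bag3 (3.81) and Dnaja1 (3.72) rose, while Cryab (-1.45) and the autophagy kinase gene Ulk1 (-0.65) fell. Of 31 proteasome subunits 14 rose and none fell by edgeR's test, also at an unadjusted p below 0.05 or by DESeq2, with a median of 0.23 and the largest rise in Psmd8 (2.15). Without mouse 2 edgeR called 12 higher and none lower, with 3 lower at an unadjusted p below 0.05. With libraries scaled by their totals 27 were higher and the median was 0.71, and 2 were higher when a fold change above 2 was tested.

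Genes guarded by NRF2, the factor that answers oxidants, rose in 13 of 23 and fell in 3 (5 without mouse 2), with a median of 1.06. With libraries scaled by their totals edgeR called 13 higher and none lower, also at an unadjusted p below 0.05, while DESeq2 with its own size factors called 4 lower. Srxn1, sulfiredoxin, rose by 4.68. Hmox1, heme oxygenase, went from 3.6, 7.11 and 2.01 to 42.4, 49.9 and 49.2 CPM, and Txnrd1, thioredoxin reductase, from 18.9, 18.3 and 17.5 to 71.1, 99.2 and 94.9 CPM. Gss (2.65) and Gclc (1.95) of glutathione synthesis rose. G6pdx, which makes NADPH, was among the members that fell (-0.88).

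Of 28 tested lysosomal genes and targets of TFEB, the factor that controls them, 7 rose and 13 fell, but with libraries scaled by their totals 8 rose and 3 fell, and the median turned from -0.40 to 0.09. Atp6v1a, a subunit of the proton pump, fell by 1.66 and Neu1, a sialidase, by 1.20. Ctsl, cathepsin L, rose by 1.57. Tfe3, a relative of TFEB, went from 8.99, 9.11 and 9.78 to 26.7, 26.7 and 28 CPM.

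Genes that supply amino acids to the ribosome and start translation mostly rose. Of 24 tested genes of amino acid transport and serine synthesis 19 rose and 2 fell, of 20 cytosolic aminoacyl tRNA synthetases 15 rose and 1 fell, and of 26 initiation factors 21 rose and 1 fell, where 27.5% of all genes were higher. Without mouse 2 the members that fell were 4 in the first and 3 in the last of these lists. Slc7a11, the cystine carrier, went from 15.7, 15.2 and 16.1 to 72.2, 96.1 and 109 CPM. Nars, the asparagine tRNA synthetase, went from 90, 57.3 and 89 to 280, 322 and 314 CPM. Eif5 went from 89.2, 71.9 and 93.7 to 337, 384 and 339 CPM. The groups of all 3 were apart. Trib3 (4.53, and 5.33 without untreated mouse 1), Chac1 (4.15) and Sesn2 (3.71), induced when amino acids are short, rose as well. Wars fell (-1.18), as did the glutamine carriers Slc38a3 (-1.95) and Slc38a5 (-1.77) and the initiation factor gene Eif2b1 (-1.14).

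Of 26 tested genes of nuclear import and export 18 rose and 3 fell (median 0.93). Ran, the GTPase that gives transport its direction, went from 16.6, 22.7 and 18.6 to 63.1, 68 and 69.8 CPM. Rangap1 (2.08) and Kpna2 (1.59) rose, while the export receptor gene Xpo1 fell (-1.18). Of 28 splicing proteins 11 rose and 6 fell, and 13 and 2 with libraries scaled by their totals. Hnrnpu went from 71.2, 102 and 74.9 up to 295, 336 and 324 CPM, and Srsf6 from 143, 93.1 and 148 down to 45.1, 39.7 and 43.4 CPM. Of 27 subunits of RNA polymerases I and III 12 rose and 5 fell. Polr3k fell from 28.3, 19.1 and 30.8 to 4.36, 5.14 and 6.45 CPM. Of 26 genes of mRNA decay 11 rose and 3 fell, and without mouse 2 17 rose. Btg2 (4.54) and Zfp36 (3.32, and 4.33 without mouse 2) rose, and Tob1, a relative of Btg2, fell from 94.9, 79.6 and 109 to 13.7, 13.6 and 13.3 CPM.

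The machinery by which the acinar cell receives caerulein and secretes changed in both directions. Of 29 tested genes of secretagogue receptors and calcium release 9 rose and 7 fell, close to the background of 27.5% and 24.7%. Without mouse 2, 12 rose and 10 fell, against a background of 30.8% and 26.8%. With libraries scaled by their totals 13 rose and 4 fell. Cckar, the receptor that caerulein binds, fell from 351, 146 and 402 to 21, 16.3 and 22 CPM. Gna14 (-2.91), a G protein subunit downstream of such receptors, and Itpr2 (-1.14), a calcium release channel of acinar cells, fell. Rcan1, an inhibitor of the calcium-dependent phosphatase calcineurin, went from 10.1, 6.11 and 8.69 to 832, 771 and 820 CPM (6.61 ± 0.24). Calm2, a calmodulin gene, rose by 2.43 and Rgs2, which shortens Gq signals, by 2.22 (2.87 without mouse 2). Of the calcineurin-regulated factors Nfatc1 rose (1.11) and Nfatc2 fell (-1.67).

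Granule traffic and exocytosis likewise gave 6 higher and 5 lower of 22, and 5 and 10 without mouse 2. Rab27a, a GTPase on secretory granules, fell from 23, 13.4 and 24.6 to 5.27, 2.25 and 3.64 CPM, and Vamp2, a granule SNARE, from 18.6, 17.7 and 18.7 to 10.3, 6.92 and 8.37 CPM. Stx3, a SNARE of acinar cells, rose by 3.12. Of 19 ion transport genes 5 rose and 2 fell (4 without untreated mouse 1 or mouse 2), among them the chloride channel gene Ano1 (1.66) and the water channel gene Aqp8 (1.75), which rose, and Aqp12 (-0.84), which fell.

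Genes that bring proteins into the endoplasmic reticulum (ER) and add their sugars fell in 14 of 27 and rose in 3, against 24.7% lower in the background, but with libraries scaled by their totals 5 fell and 8 rose, and the median turned from -0.39 to 0.14. Without mouse 2 the median was -0.64. Spcs2 of the signal peptidase fell from 66.7, 48.7 and 72.2 to 29.8, 31.3 and 23.8 CPM, and Lman1, a cargo receptor of the next step, from 104, 64.7 and 102 to 43.3, 44.4 and 36.6 CPM. Ssr1 (-1.48), Tram1 (-1.08) and Sec62 (-1.01) of the translocation channel fell. Sec61a1, the pore of that channel, rose (0.79). Of 30 COPII, COPI and Golgi genes 6 rose and 8 fell, with 15 lower without mouse 2, 5 lower without untreated mouse 3 or treated mouse 3, and 3 higher without treated mouse 1. With libraries scaled by their totals 18 rose and 2 fell. Sec24a, a coat subunit, rose from 13.3, 10.6 and 14.3 to 29.1, 36.8 and 34.5 CPM.

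Many transcripts of the secreted enzymes fell, in number depending on the scaling. By edgeR's test 15 of 18 tested pancreatic proteases fell and none rose, with a median of -1.21, and of 14 lipases, amylases and nucleases 7 fell and none rose. No gene of these lists rose at an unadjusted p below 0.05 or by DESeq2. With libraries scaled by their totals 9 proteases fell and 1, Try5, rose (median -0.66), and of the other list 3 fell and 3 rose (median -0.23). The protease list does not hold the genes Gm2663, 1810009J06Rik and Gm4744 of the trypsinogen block, which rose by between 8.45 and 9.24, nor 2210010C04Rik, which fell. The count of 7 was 12 without mouse 2 and between 3 and 4 without untreated mouse 1 or 3 or treated mouse 1 or 3. Cela2a, an elastase, fell from 93399, 56083 and 100088 to 32837, 30422 and 34385 CPM, and Ctrl, a chymotrypsin-like protease, from 35336, 22386 and 36247 to 10572, 10473 and 12075 CPM. Rnase1, the pancreatic ribonuclease, fell from 24365, 14544 and 24561 to 4458, 4666 and 5461 CPM. Mouse 2 was the lowest untreated mouse for all 3 and still above every treated mouse. Pnlip, pancreatic lipase, had overlapping groups, with 53028 CPM in untreated mouse 2 and 57792 CPM in treated mouse 3. Its log2 fold change was -0.71, and -1.01 without mouse 2. Without any one of the other 5 young libraries it did not pass (adjusted p of edgeR's test between 0.0599 and 0.116).

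Of 17 tested acinar cell markers 13 fell and 1 rose (8 and 2 with libraries scaled by their totals), but acinar transcription factors did not move as a block. Rbpjl (-2.91), Bhlha15 (-1.78), Nr5a2 (-0.95) and Gata4 (-0.76) fell. Ptf1a, the partner of Rbpjl in the complex that drives enzyme genes, rose from 15.6, 6.75 and 17.4 to 40.6, 35.9 and 35.4 CPM (1.51). Sox9, a factor of ducts and progenitors, gave 0.13 and did not pass, but was called higher with libraries scaled by their totals (0.68, and 0.62 without mouse 2 as well). The Reg lectins, secreted products of acinar cells that are known as acute phase proteins of pancreatitis, were lower: Reg1 went from 19121, 7432 and 15642 to 4905, 4330 and 6336 CPM, and Reg3a from 108, 319 and 376 to 13.8, 12.7 and 2.55 CPM. The groups of both genes were apart. Reg3g (-4.20), Reg3b (-3.35), Reg2 (-2.74) and Reg3d (-1.87) fell too. Lcn2, lipocalin 2, another acute phase protein, rose by 6.45 ± 0.35. Creatine synthesis, to which the pancreas contributes much, was lower at both steps, with Gatm at -2.43 and Gamt at -1.54, while the creatine carrier gene Slc6a8 rose (2.31).

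All 21 tested genes of the circadian clock passed the test, 10 higher and 11 lower, and all 21 also passed without mouse 2. With libraries scaled by their totals 10 were higher and 6 lower. The labels give no hour of day for either group, so a difference in the time of sampling cannot be told apart from the treatment. The clock is a loop in which the factors CLOCK and BMAL1 (Arntl) turn on Per, Cry and Nr1d genes, whose products hold that arm back. They also turn on the genes of the D-box activators Dbp, Tef and Hlf, which with their rival Nfil3 shape the output. Dbp fell from 128, 77.5 and 118 to 1.44, 1.26 and 1.4 CPM, Tef from 98.1, 63.1 and 101 to 8.5, 7.59 and 7.9 CPM, and Per3 from 37.7, 23.1 and 36.9 to 1.35, 2.13 and 0.832 CPM. Arntl rose from 0.112, 1.24 and 0.115 to 12, 11.3 and 11.1 CPM. The groups were apart in all 4, and only Arntl had mouse 2 far above its group (log2 fold change 4.38 with and 6.53 without it).

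Most other clock genes had smaller changes. Clock rose by 1.63 and Cry1 by 1.12. Per2 fell by 1.81, Nr1d1 by 1.20 and Nr1d2 by 0.65. Per1 was lower by a small margin (-0.59, adjusted p of edgeR's test 0.0435), and without any one of the young libraries other than untreated mouse 2 it did not pass (adjusted p between 0.0558 and 0.144). Nfil3 rose by 7.69 (8.41 without untreated mouse 3). Npas2, a relative of Clock, had 2 reads in the untreated libraries together, and the ratio of treated to untreated counts was 76.8, with an exact 95% interval from counting error alone of 20.9 to 639. The window of Per3, at chr4:151044666-151044915 on the minus strand of GRCm38.p6, is shown for its 2 D-boxes TTATGTAA, in capitals, at positions -205 and -158. Of all windows 0.6% hold that motif, of those of genes called lower 0.57%, and of those lower by more than 16-fold 2.56%, or 2 of 78. Per3 itself is among these 2. Of windows of genes higher by more than 16-fold 0.97% hold it, or 1 of 103. These shares were not tested.

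Per3: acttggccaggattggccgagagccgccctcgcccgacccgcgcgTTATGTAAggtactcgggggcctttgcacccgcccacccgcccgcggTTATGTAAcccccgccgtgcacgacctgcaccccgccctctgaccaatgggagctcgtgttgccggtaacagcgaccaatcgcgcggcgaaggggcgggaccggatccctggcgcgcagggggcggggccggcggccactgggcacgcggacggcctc

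**Figure D4:**
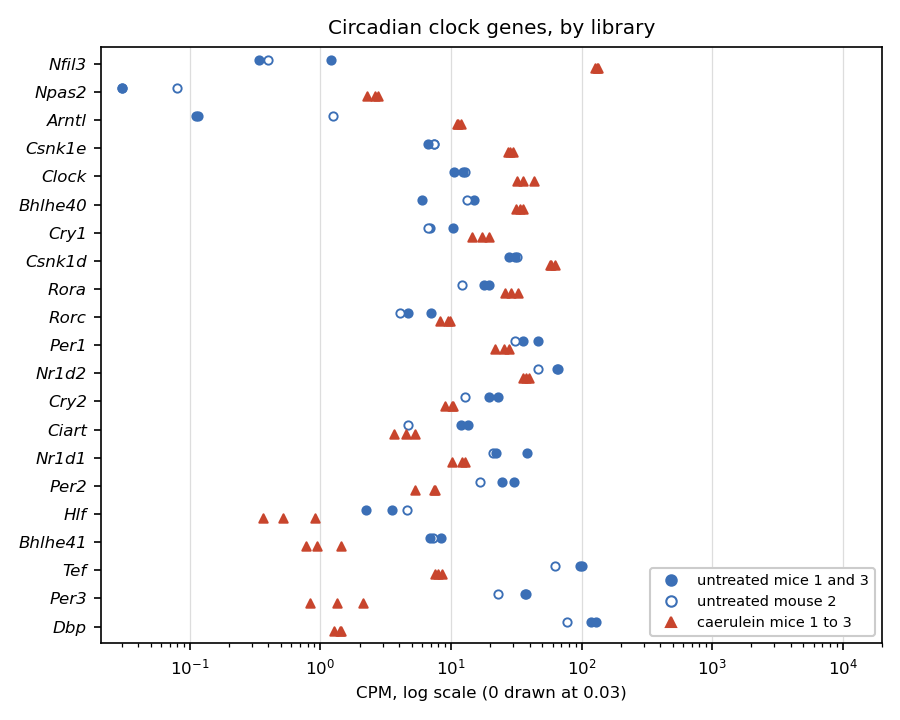
CPM of the 21 clock genes in each of the 6 young libraries, on a log axis with 0 drawn at 0.03, with filled circles for untreated mice 1 and 3, open circles for untreated mouse 2 and triangles for treated mice. Dbp, Per3 and Tef lie far lower and Nfil3 and Arntl far higher in every treated mouse, while the groups of Per1 and Nr1d2 lie close to each other.

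Of 19 tested genes of fatty acid synthesis 2 rose and 9 fell. Without untreated mouse 2, whose fat markers summed to 716 CPM, 6 rose and 7 fell, and the median went from -1.28 to -0.24. The part of fat cells in this list was not tested. Fasn, fatty acid synthase, stood at 44.3, 362 and 29.1 CPM untreated and at 60, 63.2 and 60.6 CPM treated. With all libraries the gene did not pass (-1.25), and without mouse 2 it was called higher (0.69). With mouse 2 kept it was called lower without untreated mouse 3 (-1.74) and with no filter on low counts (-1.16). Me1, malic enzyme, did likewise (-0.58 with and 2.72 without mouse 2). Lpin1 (-3.52) fell in either fit. In cholesterol synthesis 7 of 22 rose and 6 fell, and in glucose uptake and glycolysis 6 and 4 of 22, shares close to the 27.5% and 24.7% of all genes. Without mouse 2, 9 of the 22 glucose genes rose and 4 fell, where 30.8% and 26.8% of all genes did. The median of that list went from 0.02 to 0.52. Msmo1, a sterol oxidase, went from 3.04, 3.24 and 2.99 up to 21.3, 22.5 and 17.5 CPM, and Insig1, which holds the pathway back, from 50.6, 35.7 and 52.1 down to 25.2, 25.1 and 24.3 CPM. In glycolysis Pgk1 rose by 1.86 and Hk2 fell by 2.60.

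Transcripts of the mitochondrial genome split by kind. Both ribosomal RNAs rose: mt-Rnr1 from 25.3, 38.8 and 36.8 to 218, 296 and 467 CPM (3.28 ± 0.27) and mt-Rnr2 from 35.3, 43.4 and 49.5 to 288, 348 and 567 CPM (3.23 ± 0.25). Of the other 12 tested mitochondrial genes 10 fell, among them mt-Nd6 (-1.05) and mt-Nd1 (-0.92), but with libraries scaled by their totals 1 fell. Treated mouse 3 was the highest library for both ribosomal RNAs. The libraries were made from polyadenylated RNA, in which a ribosomal RNA is counted only as far as it carries or is given a poly(A) tail. Mitochondrial reads were 0.555% ± 0.0688 of all reads in untreated and 0.602% ± 0.106 in treated mice (SD, n = 3, exact two-sided permutation p = 0.6). As a share of the reads outside the enzyme genes, they went from 2.41% ± 0.106 to 1.52% ± 0.311 (SD, n = 3, exact two-sided permutation p = 0.1, the smallest possible).

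Markers of other cell types were counted in the same way. None of 18 islet markers passed edgeR's test in either fit, also at an unadjusted p below 0.05, nor DESeq2's, among them Ins2 (-0.31). Of 13 markers of neutrophils, which enter injured tissue early, 7 had enough reads to be tested. They were called higher in 3 of 7 with mouse 2 and in 7 of 7 without it. Without untreated mouse 1, untreated mouse 3 or treated mouse 2 the count was 1 of 7. In untreated mice 1 and 3, 9 of the 13 had no reads. Without mouse 2 the tested markers thus passed the read filter through other groups, so a call of higher was favoured in advance. The summed CPM of all 13 was 0.337, 7.11 and 0.345 untreated and 6.49, 24.1 and 3.27 treated, so mouse 2 overlapped with the treated group. Macrophage markers summed to 50.8, 404 and 65.8 CPM untreated and 72.1, 110 and 59.3 CPM treated, with 1 of 17 higher and 3 lower. Without mouse 2 6 were higher and 2 lower, and without untreated mouse 1 or mouse 3 6 were lower. All 5 red blood cell markers fell, and of 14 fibroblast markers 6 fell and 1 rose (2 and 2 with libraries scaled by their totals). Of 14 duct markers 4 rose and 3 fell (5 without mouse 2, and 7 and 2 with library totals). The part of these cell types in the other results was not tested.

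Without the library of untreated mouse 2, 515 lower and 268 higher calls were lost, because the gene did not pass or was not tested. That is 14.8% of the lower and 6.89% of the higher calls. In 475 of the 515 mouse 2 was the highest untreated mouse. In the other direction 561 genes were newly called higher and 664 newly called lower without it, no gene was called in opposite directions, and 6593 genes were called the same way in both fits. The genes whose fold moved most were immunoglobulin genes: Igha had 114 CPM in mouse 2 and 0 in mice 1 and 3, and Jchain had 55.2 CPM and 0. Both were called lower with mouse 2 and were not called without it. The call of Igha was also lost without any one of the treated mice, and that of Jchain without treated mouse 2. Macc1 and Soat2 were among the 8 genes, called and with at least 5 CPM in a group, whose log2 fold change went down most without mouse 2. Macc1 went from 0.899, 0.24 and 0.806 to 15.6, 15.6 and 15.5 CPM. Soat2, which stores sterol as esters, went from 2.42, 0.36 and 1.78 to 33.4, 33 and 27.8 CPM. In these mouse 2 was the lowest untreated mouse, and both were called in either fit (Macc1 4.64 and 4.13, Soat2 4.43 and 3.84). Over 1711 genes with at least 20 CPM the median coefficient of variation was 16.8% in untreated mice, 4.4% in untreated mice 1 and 3 alone and 6.96% in treated mice.

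**Figure D5:**
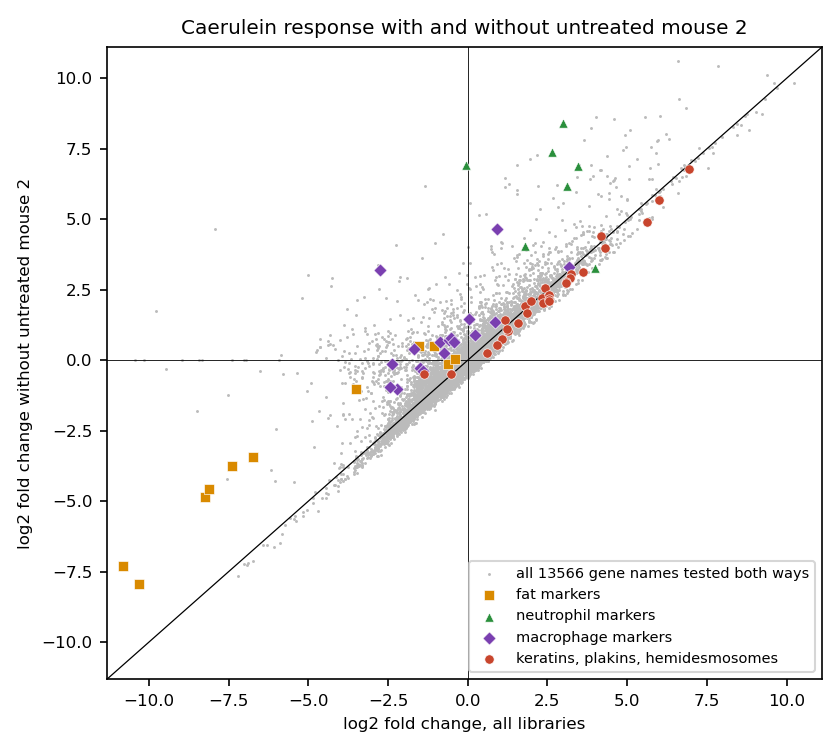
Log2 fold change of each gene in the fit without untreated mouse 2 (vertical axis) against the fit with all libraries (horizontal axis), with the diagonal as a line and the markers of fat, neutrophils and macrophages and the keratin list as larger symbols. Neutrophil markers lie mostly above the diagonal and most fat markers far to the left, while the keratin list lies along the diagonal.

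Transcription factors were also counted by family. Of 42 tested bZIP factors, the family of Fos, Jun and Atf, 24 rose and 7 fell (median 0.77). Of 41 ZBTB factors 18 rose and 7 fell. Zinc finger factors of the C2H2 class gave 95 higher and 110 lower of 406, and homeobox factors gave 6 higher and 11 lower of 45. These counts are set against 27.5% higher and 24.7% lower among all genes, which the C2H2 shares were close to. By gene class, 107 of 484 processed pseudogenes rose and 20 fell, beside 3603 higher and 3263 lower of 12705 protein-coding genes. Reads of a processed pseudogene cannot be told apart from those of a near-identical parent gene. In 8 genes no read was found in any untreated library while each treated library had at least 1 CPM. Set against 3 reads over the untreated group, Foxa1, a pioneer factor of endoderm, was at least 39.9-fold higher, at 1.92, 2.05 and 1.98 CPM, and Wee2, a kinase known from oocytes, at least 26.8-fold higher. No gene with at least 1 CPM in each untreated library was without reads in all treated ones.

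The response was compared with that of 18-month-old mice through the difference of the 2 fold changes. edgeR's test found 2 genes past the threshold, 0.0142% of those tested, and 311 without mouse 2, or 2.29%, of which 110 had the higher log2 fold change in young mice. Dtx4, a ubiquitin ligase of the Notch pathway, went from 10.7, 10.8 and 11 to 55.9, 56.1 and 68.5 CPM in young mice (2.47 ± 0.14), and in old mice from a mean of 12.9 to 21 CPM (0.71 ± 0.15). Atp6v1b2, a subunit of the lysosomal proton pump, went from 19.3, 20.3 and 19.6 to 36.4, 43.5 and 40.6 CPM in young mice (1.03 ± 0.13), and in old mice from a mean of 18.6 to 124 CPM (2.74 ± 0.16). The adjusted p of the difference was 0.0159 for both genes, and 0.00168 without mouse 2. The old untreated group had 2 mice, which limits the precision of this comparison.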

How the data were processed

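RNA of 11 pancreases was measured by RNA sequencing. The values are raw read counts per gene as deposited, and the submitters' processing notes name HISAT2 2.0.5, featureCounts 1.5.0-p3 and the build mm10. The strand setting, annotation release and read filters are not stated in the sources used here, so reads of overlapping genes on opposite strands may not be told apart. The log2 fold changes and the adjusted p-values of the authors' deposited table of the young comparison, whose tool is not named in the file headers, were used only to count shared calls.

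All 11 libraries and 4 groups entered edgeR 4.0.16 (R 4.3.3), with filterByExpr, trimmed mean of M-values scaling and the quasi-likelihood F test of young caerulein against young untreated mice. The other age also entered the read filter, the scaling and the estimate of spread, but not the contrast. Genes were called at a Benjamini-Hochberg adjusted p below 0.05 over all genes tested, and the SE is the log2 fold change divided by the square root of F. CPM values were scaled in the same way. Each library is 1 mouse, so the p-values set the difference between groups against the spread between mice, estimated over all 4 groups. The fit was repeated without untreated mouse 2 and under the settings of the closing section, DESeq2 1.42.0 among them, and the code was tested on simulated data. Shares of reads were compared with exact two-sided permutation tests.

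Named genes follow a rule: the 14 coding genes in each direction with the largest fold, at least 20 CPM and no overlap between groups, the 10 with the largest gain and loss in CPM, up to 4 called members of each list by smallest p, the 8 in each direction that moved most without mouse 2, up to 6 whose response differed between ages, and some genes fixed by name. Others, including the chromosome 6 block and further list members, were chosen after their values were seen. Some genes that the rule names are not reported here. The members and all gene lists were chosen with earlier results of these data known. Windows before gene starts are RefSeq's for GRCm38.p6, found by symbol for 10321 of 14111 tested symbols.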

Additional observations from a re-analysis of the deposited data

Results flagged for a closer look

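The response of some named genes differed between 7-week and 18-month mice by edgeR's test of the difference. With all libraries Atp6v1b2 (young minus aged log2 fold change -1.71) and Dtx4 (1.76) did so. The other differences passed only without young untreated mouse 2. The response was larger, or the fall smaller, in young mice for the junction genes Cldn4 (3.46) and Cldn7 (0.77), the channel gene Trpv6 (1.25), the acinar factor gene Ptf1a (1.23) and the clock gene Tef (0.98).

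The values here compare responses and not levels: Reg3b stood at a mean of 1307 CPM in young and 24.3 CPM in aged untreated mice. Young mice had the lower log2 fold change for the growth factor and feedback genes Dusp5 (-4.92), Hbegf (-2.20), Errfi1 (-1.81), Rcan1 (-1.37) and Klf6 (-0.90). A lower log2 fold change in young mice was also seen for Reg3b (-3.83), Reg2 (-3.39) and Reg3d (-1.04) of the Reg lectins. So it was for Gclc (-2.69), Chac1 (-1.11) and Wars (-0.94) of metabolism and translation, and for the factor genes Sox9 (-1.55) and Bhlha15 (-1.05). Such a difference can be a smaller rise, as for Hbegf, or a larger fall, as for Reg3d. The log2 fold change was lower in young mice for Lfng (-1.25), Krt18 (-0.96), Ano1 (-0.95), Gjb2 (-0.79), Itga6 (-0.78) and Zyx (-0.75) as well. The aged untreated group had 2 mice.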

How the results depend on the processing

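The calls of 3888 higher and 3488 lower genes became 5314 and 1269 with libraries scaled by their totals, 7175 and 1078 with that scaling and without untreated mouse 2, and 1444 and 771 when a fold change above 2 was tested. Leaving out 1 library gave between 3409 and 4181 higher and between 2697 and 3637 lower genes. The count of 2 genes that differed between ages was 674 with no filter on low counts, 279 with DESeq2 and 0 with library totals or with a fold change above 2 (1269 and 357 at an unadjusted p below 0.05). Leaving out 1 library gave between 0 and 311 such genes, and without untreated mouse 2 there were 501 with DESeq2 and 121 with library totals. The share of mitochondrial reads changed by 0.048 percentage points, and by -0.893 with enzyme reads left out of the total. For 6 young libraries with mouse number as a replicate block 3176 genes were higher and 2414 lower. Mice with the same number correlated by 0.0922, 0.153 and 0.113. Untreated mice 2 and 3 correlated best with the treated mouse of their own number, and untreated mouse 1 with treated mouse 3 (0.175). The labels name no pairs, and the main fit did not take the numbers as pairs. With the block G6pdx, Gm5771, Per1, Pnlip, Prss2, Prss3 and Try4 lost their call among the genes named, and 7 pancreatic proteases in place of 15 were lower. Without untreated mouse 2 the sign turned for Fasn (0.69 with edgeR, 0.66 with young libraries alone, 0.68 with DESeq2, 1.46 with library totals), Me1 (2.72, 2.69, 2.71 and 3.49 in that order), Igha (4.66, 3.93 with DESeq2 and 4.97 with library totals) and Jchain (1.73, 0.55 and 1.98), the last 2 on few reads. Leaving out 1 library gave ranges of -1.74 to 0.69 for Fasn, -1.13 to 2.72 for Me1, -9.65 to 4.66 for Igha and -11.52 to 1.73 for Jchain. The calls of Pnlip, Prss2 and Try4 were lost with no filter on low counts, and those of Pnlip and Prss2 with young libraries alone. With library totals Prss2 stood at 0.01 and Try5 at 0.50, and without mouse 2 as well Try5 stood at 0.56, Dusp2 at 0.66, G6pdx at 0.19, Per1 at 0.02 and Xpo1 at 0.03. The settings that combine a choice with leaving out mouse 2 were added after seeing the data, and the cause of these changes was not tested.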

Other observations

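Regulators of Notch, Wnt and TGF-beta signalling gave 5 higher and 8 lower of 23 tested Notch genes (8 and 6 of 22 without untreated mouse 2, 5 lower without treated mouse 3, and 5 and 2 with libraries scaled by their totals) and 9 higher and 7 lower of 28 tested genes of the other 2 pathways, close to the 27.5% and 24.7% of all genes. Hes1, the main target of Notch, went from 5.06, 2.8 and 2.07 to 14.1, 10.7 and 11.7 CPM, while Hes6, which opposes it, went from 13.7, 10.3 and 14.7 to 1.79, 2.41 and 1.35 CPM. The groups did not overlap in either gene. Axin2 and Rnf43, both Wnt targets that feed back on the pathway, fell by 2.38 ± 0.38 and 2.10 ± 0.28 on the log2 scale. Inhbb, an activin subunit, rose (2.35 ± 0.34), as did Fst, an inhibitor of activins, from 0, 0.0799 and 0.115 to 1.35, 2.53 and 0.988 CPM.

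Of 10 tested inhibitors of proteases 3 were higher and 3 lower, shares close to the 27.5% and 24.7% of all genes. Serpinb6a, which acts inside cells, went from 24.4, 16.4 and 26.4 to 184, 219 and 214 CPM, and Cstb, an inhibitor of cathepsins, from 11.7, 11.7 and 14.1 to 32.8, 36.7 and 32.5 CPM. Serpini2, a serpin of the pancreas, went from 824, 406 and 865 to 250, 286 and 291 CPM. In none of the 3 genes did treated and untreated mice overlap. Spink1, the trypsin inhibitor stored with the enzymes, had a log2 fold change of -0.24 and did not pass, and without untreated mouse 2 it was lower (-0.56). Sat1, which breaks down polyamines, went from 14.5, 20 and 15.7 to 162, 157 and 166 CPM.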
